A study of Homo sapiens with 4 samples.

Results

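Autophagy genes were examined in RPMI 8226 cells, a human multiple myeloma line, after transfection with an antisense oligonucleotide against CELF2. The set held 40 named genes for autophagy initiation, membrane supply, conjugation, cargo receptors and the TFE transcription factors, out of 78932 genes in the count table. Each member matched 1 gene ID by symbol. A filter on low counts kept 37 of the 40, and 19511 genes in all. Cells given 5 nM of an LNA ASO (a short oligonucleotide with locked sugars that pairs with a chosen RNA) against CELF2 made up the first group, with 2 libraries. Cells given a control LNA ASO, whose dose the labels do not give, made up the other group, also with 2 libraries. RNA was taken after 72 hours. The titles number the libraries of each group 1 and 2, and the labels do not say whether that number marks a replicate of 1 oligonucleotide or a different oligonucleotide. A difference between libraries 1 and 2 of a group, and every standard error here, may therefore hold a difference between oligonucleotides as well as between replicates. Whether the libraries are separate cultures is not in the labels either, and p-values therefore cover the spread between these libraries only, which may be technical.

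Autophagy wraps cytoplasm in a double membrane and delivers it to the lysosome. The ULK kinase complex starts the process, a lipid kinase complex built on PIK3C3 and BECN1 marks the site, and ATG9A, ATG2 and WIPI proteins feed and shape the membrane. A pair of ubiquitin-like conjugation systems then attaches the ATG8 family (LC3 and GABARAP proteins) to lipid, and receptors such as SQSTM1 tie cargo to ATG8 proteins. TFEB, TFE3 and MITF are transcription factors that switch on many of these genes and lysosomal genes. Plasma cells and myeloma cells make large amounts of immunoglobulin and rely on autophagy beside the proteasome to clear protein and endoplasmic reticulum.

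Total counts were 26061900 and 23599190 in the CELF2 ASO libraries and 29161298 and 24493148 in the control ASO libraries. CELF2 itself was at 56.4 and 48.6 CPM under the CELF2 ASO, against 128 CPM in each control ASO library. CPM here means counts per 1000000 counts of the library total after TMM scaling. The labels name both poly(A) selection and ribosomal RNA removal for the same libraries. The 10 plasma cell markers summed to 3902 to 4458 CPM under the CELF2 ASO and 3515 to 3765 CPM under the control ASO, but 4 of them rose and 4 fell. SDC1 (CD138) was 2.34-fold, TNFRSF17 (BCMA) 2-fold, PRDM1 1.86-fold and MZB1 1.37-fold lower, while CD38 was 2.43-fold, IRF4 1.71-fold, POU2AF1 1.61-fold and SLAMF7 1.41-fold higher. Their part in the results on autophagy genes was not tested. The 7 T and NK cell markers summed to 1.84 to 1.94 CPM with the CELF2 ASO and 1.43 to 1.87 CPM with the control ASO. The 7 myeloid markers summed to 2.7 to 2.92 CPM with the CELF2 ASO and 4.99 to 5.27 CPM with the control ASO. LYZ, S100A8 and FCGR3A were at 0 in every library. Of the 3 that were tested, S100A9 and CD14 fell and CSF1R did not pass. S100A9 had 2 and 0 counts with the CELF2 ASO and 40 and 36 with the control ASO. CD14 had 29 and 33 counts with the CELF2 ASO and 67 and 52 with the control ASO. The 6 stromal and epithelial markers summed to 31.2 to 38.9 CPM with the CELF2 ASO and 64.5 to 66.6 CPM with the control ASO, nearly all of it EPCAM (37.6 and 30.3 CPM with the CELF2 ASO, 62 and 63.6 CPM with the control ASO).

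With the CELF2 ASO, the WIPI1, MAP1LC3B and OPTN mRNAs rose between 3.07-fold and 4.21-fold, all 5 tested cargo receptors rose, and 4 of 5 members of the ULK complex rose. The conjugation enzymes moved apart, with ATG3 2.23-fold lower and ATG4A 1.77-fold higher. Of 37 tested members, 18 rose, 10 fell and 9 did not pass (edgeR quasi-likelihood test, adjusted p under 0.05). The 18 include GABARAPL1, which had few counts and passed the filter only through the CELF2 ASO libraries, where it was high. That is 75.7% called, where 55.5% of all 19511 tested genes were called, with 27.5% of the tested genes higher and 27.9% lower. Among members the shares were 48.6% higher and 27% lower. The median log2 fold change was 0.36 over the tested members and 0.04 over all tested genes. The members' median was 0.23 without CELF2_LNA_ASO replicate 1, and with no filter it was 0.12, beside 0.08 over all genes. The members are mostly well expressed, and among the 15317 genes with at least 1 CPM in 2 libraries 64.4% were called, beside 29 of 36 members. In these bulk samples, fewer cells that express a gene and less RNA per cell cannot be told apart.

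Changes of at least 2-fold past the test were found in 6 members, or 16.2% of those tested, where the share over all tested genes was 25.6%. ULK2, WIPI1, MAP1LC3B, GABARAPL1 and OPTN were higher and ATG3 was lower, with GABARAPL1 resting on the few counts named above. Between the groups, 20 tested members were higher and 13 lower in both CELF2 ASO libraries than in either control ASO library, where 79.6% of all tested genes were separated in this way. ATG14, UVRAG, ATG2A and ATG5 were the members whose libraries overlapped.

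**Figure D1:**
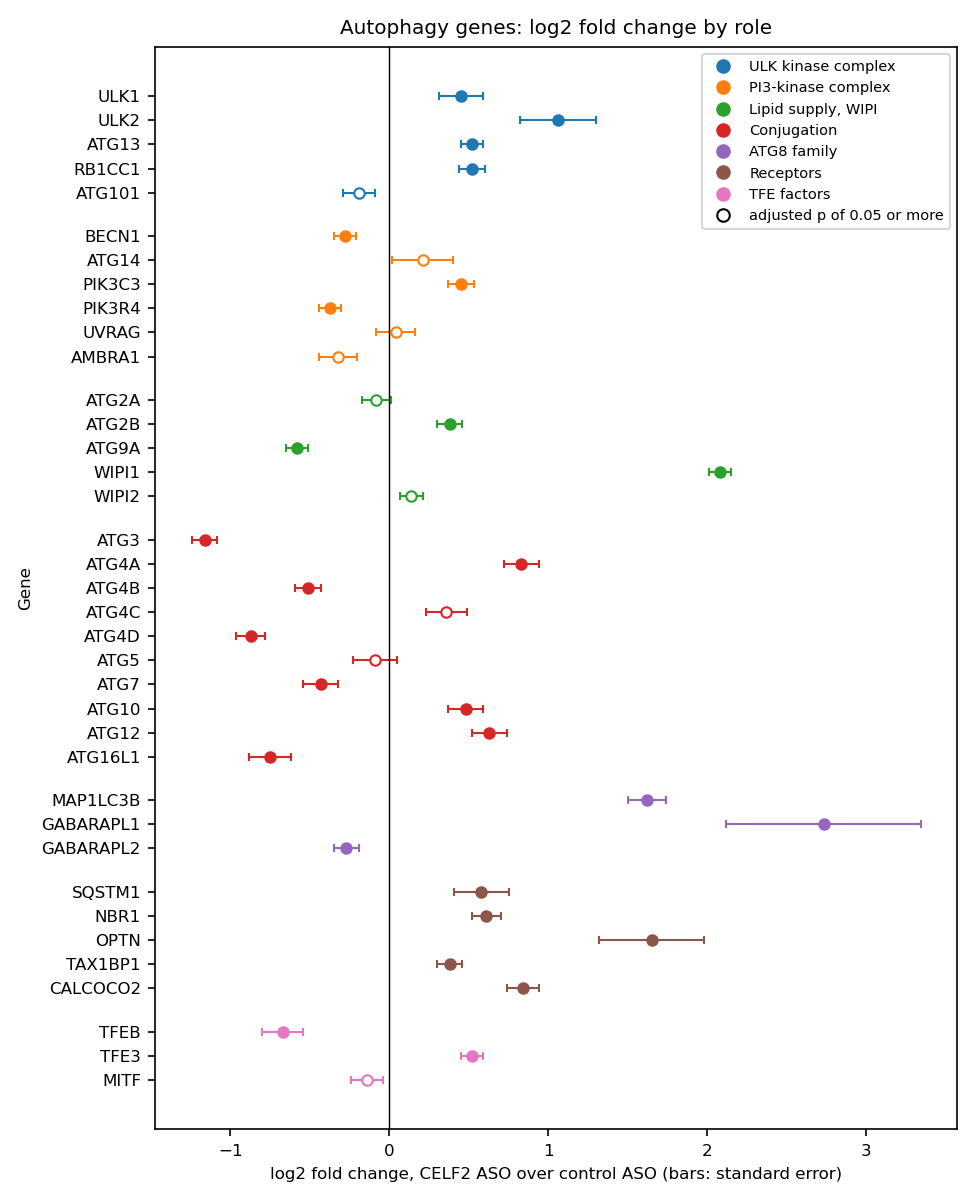
Log2 fold change of each tested autophagy gene, CELF2 ASO over control ASO, by role. Points are edgeR estimates with standard errors from 2 libraries per group, and open points did not pass the adjusted p threshold of 0.05. All 5 receptors lie above 0, the conjugation genes lie on both sides, and GABARAPL1 has the widest error.

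**Figure D2:**
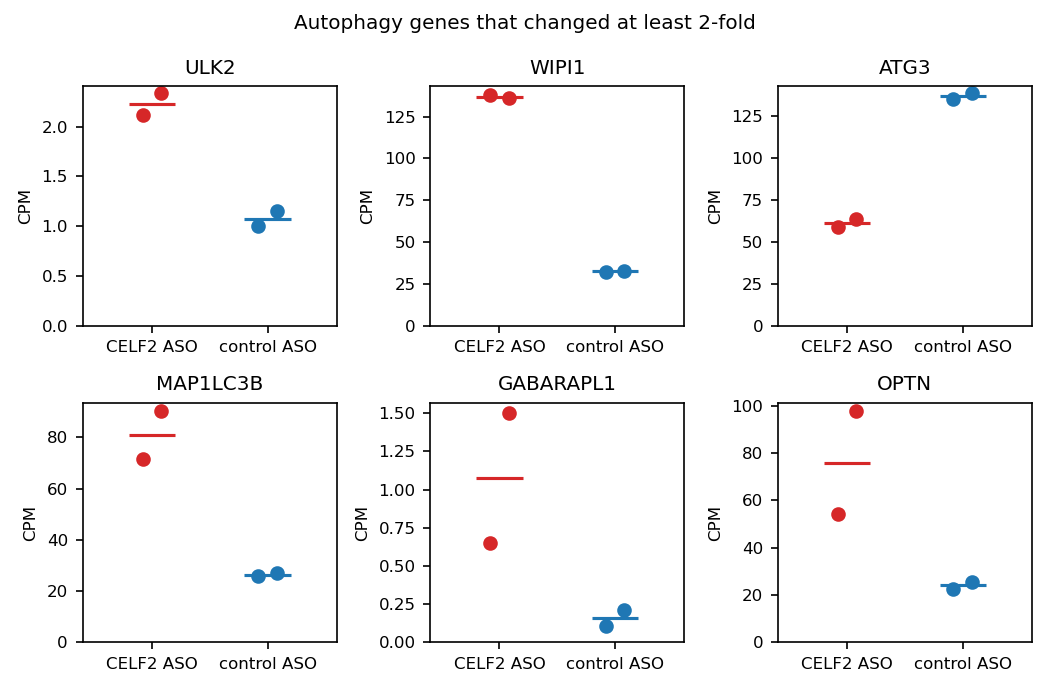
CPM (linear axes from 0) in each library for the 6 members that changed at least 2-fold, with CELF2 ASO libraries in red at the left and control ASO libraries in blue. Points are libraries and lines are group means. No group overlaps the other in any panel, and OPTN, GABARAPL1 and MAP1LC3B differ most between the CELF2 ASO libraries.

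The promoters of WIPI1, MAP1LC3B and ATG3, picked after their values were seen, are shown because TFE factors read the E-box CACGTG, and the sequences let that motif be looked for. They are the 250 bases before the RefSeq start site (GRCh38.p14), with CACGTG in capitals. The WIPI1 window was chr17:68457497-68457746, minus strand, that of MAP1LC3B was chr16:87392086-87392335, plus strand, that of ATG3 was chr3:112561963-112562212, minus strand, and that of ATG14, the only other member whose window held the motif, was chr14:55411831-55412080, minus strand.
WIPI1: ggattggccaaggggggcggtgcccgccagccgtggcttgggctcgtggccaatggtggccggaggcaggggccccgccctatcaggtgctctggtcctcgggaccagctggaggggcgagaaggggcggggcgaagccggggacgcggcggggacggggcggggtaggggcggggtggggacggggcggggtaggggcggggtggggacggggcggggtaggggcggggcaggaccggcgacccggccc
MAP1LC3B: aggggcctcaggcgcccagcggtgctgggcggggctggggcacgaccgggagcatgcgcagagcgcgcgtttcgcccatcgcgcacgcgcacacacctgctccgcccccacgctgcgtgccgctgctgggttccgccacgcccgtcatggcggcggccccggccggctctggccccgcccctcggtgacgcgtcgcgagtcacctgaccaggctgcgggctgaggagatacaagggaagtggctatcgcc
ATG3: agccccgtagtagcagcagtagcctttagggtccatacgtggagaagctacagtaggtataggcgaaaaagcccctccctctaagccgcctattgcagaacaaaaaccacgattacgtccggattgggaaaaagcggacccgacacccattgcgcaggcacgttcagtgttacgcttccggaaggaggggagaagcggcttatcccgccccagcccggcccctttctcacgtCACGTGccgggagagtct
ATG14: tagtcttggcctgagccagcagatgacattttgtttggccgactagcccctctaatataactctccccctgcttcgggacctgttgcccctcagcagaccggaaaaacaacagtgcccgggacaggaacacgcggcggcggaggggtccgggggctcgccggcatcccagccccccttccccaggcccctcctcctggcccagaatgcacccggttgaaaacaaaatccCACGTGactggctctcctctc

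RefSeq windows of 250 bases before to 50 after the start were found for 36 of the 40 members. CACGTG, searched on both strands, was in the windows of 2 of these 36, ATG3 and ATG14, where 8.77% of the 27305 genes in the table held it. The longer TCACGTG, which contains it, was in the same 2 members and in 4.49% of genes. In ATG3 the motif began 18 bases before the start and again at base 6 after it, and in ATG14 it began 21 bases before the start. TGATGNAA, the composite element of ATF4 with a C/EBP factor, was in no member's window and in 4.46% of genes. Neither WIPI1 nor MAP1LC3B held these motifs in its window, and a match or its absence says nothing of binding.

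The ULK complex, which receives nutrient signals and starts autophagosome formation, was higher in 4 of its 5 members. Over all tested genes 27.5% were called higher. ATG13, the adaptor of the complex, had 140 and 144 CPM under the CELF2 ASO, against 99.9 and 97.3 CPM under the control ASO, a log2 fold change of 0.52 ± 0.07 (SE; edgeR adjusted p = 0.000594). RB1CC1, its large scaffold also called FIP200, was 1.43-fold higher, with 52.4 and 49.5 CPM against 37 and 34.1 CPM under the control ASO. The libraries within each group lay close together for both genes. The kinase gene ULK1 had 36 and 26.9 CPM with the CELF2 ASO and 22.6 and 23.6 CPM with the control ASO, so the rise of 1.37-fold (edgeR adjusted p = 0.0291) came with unequal CELF2 ASO libraries. It was lost without control_LNA_ASO replicate 1 (edgeR adjusted p = 0.0949). Its paralog ULK2 was 2.08-fold higher at a low level, with 59 and 56 counts in the CELF2 ASO libraries and 28 and 27 counts in the control ASO libraries. ATG101, which stabilises ATG13, was at 22.6 and 21.4 CPM with the CELF2 ASO and 25 and 25.1 CPM with the control ASO. It missed the threshold (edgeR adjusted p = 0.131). Its log2 fold change was -0.19, and -0.22 without CELF2_LNA_ASO replicate 1. The antisense gene AC025259.1 shares 19.2% of its exon length and had 1 to 4 counts with the CELF2 ASO and 4 to 6 with the control ASO.

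The lipid kinase complex was split. PIK3C3, the catalytic subunit VPS34, was 1.37-fold higher, with 37.1 and 36.5 CPM under the CELF2 ASO and 26.7 and 27.1 CPM under the control ASO (edgeR adjusted p = 0.00293). Its regulatory partner PIK3R4 was 1.29-fold lower, with 44.3 and 43.6 CPM against 57.8 and 55.6 CPM with the control ASO (edgeR adjusted p = 0.00419). BECN1, the scaffold Beclin 1, was 1.21-fold lower, with 45.1 and 46.1 CPM against 55 and 55.7 CPM with the control ASO. The libraries of each group lay close together for these 3 genes and the groups did not overlap, but each call was lost on removing a control library. Without control_LNA_ASO replicate 1 the edgeR adjusted p was 0.0603 for PIK3C3, 0.0594 for PIK3R4 and 0.112 for BECN1. BECN1 also lost its call without control_LNA_ASO replicate 2 and with library totals alone (edgeR adjusted p = 0.0971). On the opposite strand, CNTD1 shares 12.4% of the BECN1 exon length and had 13 and 9 counts with the CELF2 ASO. PSME3, also on the opposite strand, shares 4.68%. It fell, with 5206 and 4341 counts against 9732 and 8388 with the control ASO. Its part in the BECN1 values was not tested. Of the subunits that direct the complex, ATG14, which sends it to autophagosomes, had 4.46 and 4.3 CPM with the CELF2 ASO and 3.28 and 4.34 CPM with the control ASO. UVRAG, which sends it to endosomes, had 36.2 and 44.5 CPM with the CELF2 ASO and 37.4 and 41.2 CPM with the control ASO. Neither passed, and their libraries overlapped. With 1 CELF2 ASO library left, the log2 fold change of UVRAG was 0.19 without CELF2_LNA_ASO replicate 1 and -0.13 without CELF2_LNA_ASO replicate 2. AMBRA1, a regulator that ties the complex to ULK1, was at 51.2 and 65.7 CPM with the CELF2 ASO and 75.2 and 70.3 CPM with the control ASO (log2 fold change -0.32, edgeR adjusted p = 0.0543). It was called lower with RLE scaling (edgeR adjusted p = 0.0425), a replicate block (0.0414) and no filter (0.000494), and with limma-voom (adjusted p = 0.0481). Its log2 fold change was -0.14 without CELF2_LNA_ASO replicate 1 and -0.53 without CELF2_LNA_ASO replicate 2. Each of these rests on 1 CELF2 ASO library.

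WIPI1 showed the smallest p of all members. It binds the phosphoinositide made by PIK3C3 and lies on chromosome 17 from 68420948 to 68457513 on the minus strand (GRCh38, GENCODE 29). Its level was 138 and 136 CPM under the CELF2 ASO and 32.4 and 32.7 CPM under the control ASO. The libraries within each group were nearly equal, and the difference was 4.21-fold, a log2 fold change of 2.08 ± 0.07 (SE; edgeR adjusted p = 3.89e-06). ARSG on the opposite strand shares 24.3% of the WIPI1 exon length and also rose, with 699 and 632 counts in the CELF2 ASO libraries against 223 and 165 in the control ASO libraries. The strand setting of the counting is not given, so reads in the shared stretch cannot be assigned to a strand. WIPI1 itself had 3826 and 3266 counts with the CELF2 ASO and 908 and 768 with the control ASO.

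The paralog WIPI2, which recruits ATG16L1, was at 101 and 97.3 CPM with the CELF2 ASO and 89.7 and 89.8 CPM with the control ASO. It missed the threshold (log2 fold change 0.14, edgeR adjusted p = 0.126). Library totals alone (edgeR adjusted p = 0.027) and the 1 CPM filter (0.0433) put it past. Its log2 fold change was 0.15 without CELF2_LNA_ASO replicate 2. ATG9A, a lipid scramblase carried on vesicles, fell to 38.9 and 38 CPM under the CELF2 ASO, against 57.8 and 57.1 CPM under the control ASO (1.49-fold, edgeR adjusted p = 0.000446). AC068946.2 on the same strand shares 38.8% of the ATG9A exon length and had 3 and 0 counts with the CELF2 ASO and 0 in both control ASO libraries, so the split of reads between them is uncertain. Of the lipid transfer protein genes, ATG2B rose and ATG2A did not pass. ATG2A had 94.1 and 82.2 CPM with the CELF2 ASO and 93.3 and 93.6 CPM with the control ASO, with overlapping groups. Its log2 fold change was -0.18 without CELF2_LNA_ASO replicate 1 and -0.01 without CELF2_LNA_ASO replicate 2. ATG2B was 1.3-fold higher, with 77.8 and 71.7 CPM against 57.4 and 57.5 CPM with the control ASO, a call lost without control_LNA_ASO replicate 1 (edgeR adjusted p = 0.0782) or replicate 2 (0.0757).

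In the conjugation systems 3 of 10 members rose and 5 fell, or 30% and 50%. Over all tested genes 27.5% rose and 27.9% fell, so the share that rose was near that of all genes. ATG3, the E2-like enzyme that transfers ATG8 proteins to lipid, fell to 59.1 and 63.8 CPM under the CELF2 ASO, against 135 and 139 CPM under the control ASO. The log2 fold change was -1.16 ± 0.08 (SE; edgeR adjusted p = 2.27e-05), and the libraries within each group were close. ATG10, the E2-like enzyme of the other system, moved the other way, with 26.8 and 22.9 CPM against 17.5 and 18.2 CPM with the control ASO (1.39-fold higher, lost without control_LNA_ASO replicate 1 at edgeR adjusted p = 0.089). On the opposite strand RPS23 shares 6.86% of the ATG10 exon length. RPS23 had 17530 and 16561 counts with the CELF2 ASO and 17634 and 14610 with the control ASO. Its part in the ATG10 values was not tested. ATG7, the E1-like enzyme that serves both systems, fell. It had 18.2 and 21.5 CPM with the CELF2 ASO, against 26.1 and 27.3 CPM with the control ASO. Its call was lost without control_LNA_ASO replicate 2 (edgeR adjusted p = 0.0765), and VGLL4 on the opposite strand shares 18.1% of its exon length. ATG12, the ubiquitin-like protein that ATG10 transfers, was 1.55-fold higher, with 21.5 and 24.8 CPM against 14.8 and 15.1 CPM with the control ASO. Its partner ATG5 did not pass, with 13.7 and 17 CPM with the CELF2 ASO and 15.4 and 17.3 CPM with the control ASO. The log2 fold change of ATG5 was 0.07 without CELF2_LNA_ASO replicate 1 and -0.26 without CELF2_LNA_ASO replicate 2. ATG16L1, which completes their complex, was 1.69-fold lower, with 10.7 and 8.85 CPM against 16.1 and 16.9 CPM with the control ASO. The 3 genes whose products form 1 complex thus had log2 fold changes of 0.63 for ATG12, -0.09 for ATG5 and -0.75 for ATG16L1.

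The ATG4 proteases, which prime ATG8 proteins and release them from lipid, also diverged. ATG4A was 1.77-fold higher, with 23.3 and 24.6 CPM under the CELF2 ASO and 14.1 and 12.8 CPM under the control ASO (edgeR adjusted p = 0.000526). ATG4B, the most active of the family, fell to 33 and 31.5 CPM with the CELF2 ASO, against 45.3 and 46.4 CPM with the control ASO. THAP4 on the opposite strand shares 3.57% of the ATG4B exon length. It also fell, with 1519 and 1090 counts against 3840 and 3145 with the control ASO. ATG4D was 1.83-fold lower, with 24 and 23 CPM against 44.3 and 41.6 CPM with the control ASO (edgeR adjusted p = 0.000144). It shares 15% of its exon length with KRI1 on the opposite strand. KRI1 also fell, with 1401 and 1283 counts against 2089 and 1843 with the control ASO. Its part in the ATG4D values was not tested. ATG4C was at 9.57 and 10.2 CPM with the CELF2 ASO and 8.06 and 7.31 CPM with the control ASO and missed the threshold (edgeR adjusted p = 0.0507). Library totals alone (edgeR adjusted p = 0.0185), the 1 CPM filter (0.0278), a dispersion without a trend (0.0493) and the non-legacy quasi-likelihood fit (0.0485) put it past. Its log2 fold change was 0.36, and 0.41 without CELF2_LNA_ASO replicate 1.

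Within the ATG8 family, MAP1LC3B (LC3B, chromosome 16 from 87383995 to 87404779, plus strand) rose 3.07-fold. It had 71.6 and 90.4 CPM under the CELF2 ASO and 25.9 and 26.9 CPM under the control ASO (log2 fold change 1.62, standard error 0.12, edgeR adjusted p = 3.25e-05). GABARAPL2, also called GATE-16, was 1.2-fold lower, with 36.5 and 37.5 CPM against 43.7 and 45.3 CPM with the control ASO. That call was lost without control_LNA_ASO replicate 1 (edgeR adjusted p = 0.125) or replicate 2 (0.22), with library totals alone (0.141) and with DESeq2 (adjusted p = 0.063). GABARAPL1 had 18 and 36 counts in the CELF2 ASO libraries and 3 and 5 counts in the control ASO libraries. Its rise passed (edgeR adjusted p = 0.00687), with a log2 fold change of 2.73 ± 0.61 (SE). It was kept by the filter through the CELF2 ASO libraries alone, and the log2 fold change was 2.01 without CELF2_LNA_ASO replicate 2. MAP1LC3A had 5 and 3 counts with the CELF2 ASO and 5 and 4 with the control ASO. GABARAP had 3 and 0 counts with the CELF2 ASO and 4 and 3 with the control ASO. Neither was tested, and another annotated gene on the same strand, AC120057.2, shares 30.5% of the GABARAP exon length. AC120057.2 had no counts in any library. On the opposite strand AC120057.3 shares 25.2%, with 8 and 1 counts with the CELF2 ASO and 4 and 6 with the control ASO. Whether reads of GABARAP were lost in counting was not tested.

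Per length of exon, MAP1LC3B held a larger share of the ATG8 family with the CELF2 ASO. MAP1LC3B made up 52.2% and 57.1% of the family's summed CPM per kb in the CELF2 ASO libraries, against 25% in both control ASO libraries. GABARAPL2 made up 46.6% and 41.5% with the CELF2 ASO and 74% and 73.9% with the control ASO. The summed level was 25.8 and 29.8 CPM per kb with the CELF2 ASO and 19.5 and 20.2 CPM per kb with the control ASO. These shares leave out any GABARAP reads that the counting did not assign. MAP1LC3B2, a near-identical copy of MAP1LC3B, had 27 and 22 counts in the CELF2 ASO libraries and 11 and 4 in the control ASO libraries, and the pseudogene MAP1LC3BP1 had 6 in both CELF2 ASO libraries and 4 and 2 in the control ASO libraries. How reads shared between copies were counted is not given, so the split between MAP1LC3B and its copies is uncertain.

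All 5 tested receptors rose, where 27.5% of all tested genes rose. OPTN, optineurin, which carries mitochondria and bacteria to autophagosomes, had 54.2 and 97.6 CPM under the CELF2 ASO and 22.7 and 25.7 CPM under the control ASO. The groups did not overlap, but the CELF2 ASO libraries differed 1.8-fold, and the rise of 3.13-fold had a standard error of 0.33 on the log2 scale (edgeR adjusted p = 0.0197, lost with no filter at 0.214). SQSTM1, the receptor p62 for ubiquitinated cargo, had 426 and 621 CPM with the CELF2 ASO and 344 and 354 CPM with the control ASO. It was 1.5-fold higher (edgeR adjusted p = 0.0284), lost with limma-voom (adjusted p = 0.0511), and its own CELF2 ASO libraries differed 1.46-fold. MRNIP on the opposite strand shares 20.7% of the SQSTM1 exon length and had 306 and 276 counts with the CELF2 ASO, beside 11835 and 14861 for SQSTM1.

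The other receptors moved with less spread. CALCOCO2 (NDP52), a receptor for bacteria and mitochondria, was 1.78-fold higher, with 87.7 and 104 CPM under the CELF2 ASO and 55 and 52.5 CPM under the control ASO (edgeR adjusted p = 0.000288). NBR1, which works beside SQSTM1, was 1.52-fold higher, with 149 and 172 CPM against 107 and 104 CPM with the control ASO. TAX1BP1 was 1.3-fold higher, with 59.6 and 64.5 CPM against 47.3 and 48 CPM with the control ASO, a call lost without control_LNA_ASO replicate 1 (edgeR adjusted p = 0.0877) or replicate 2 (0.0676). RETREG1, a receptor for endoplasmic reticulum also called FAM134B, had 5 and 3 counts with the CELF2 ASO and 4 in both control ASO libraries and was not tested. SQSTM1 stayed the most abundant receptor per length, at 55.6 and 81.1 CPM per kb with the CELF2 ASO and 45 and 46.2 CPM per kb with the control ASO.

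Of the 3 TFE factors, TFE3 rose and TFEB fell. TFE3 was 1.44-fold higher, with 93.1 and 89.6 CPM under the CELF2 ASO and 64.2 and 62.9 CPM under the control ASO (edgeR adjusted p = 0.000653). TFEB was 1.59-fold lower, with 8.49 and 7.52 CPM against 12.6 and 12.8 CPM with the control ASO (edgeR adjusted p = 0.00337). MITF had 19.9 and 18.9 CPM with the CELF2 ASO and 21.6 and 21.3 CPM with the control ASO and did not pass (edgeR adjusted p = 0.255). Per length, TFE3 was the most abundant of the family in every library, at 21.7 and 20.9 CPM per kb with the CELF2 ASO and 15 and 14.7 CPM per kb with the control ASO. TFEB was at 1.5 and 1.33 CPM per kb with the CELF2 ASO and 2.23 and 2.27 CPM per kb with the control ASO. These proteins are controlled largely by where in the cell they are, which mRNA counts do not measure.

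**Figure D3:**
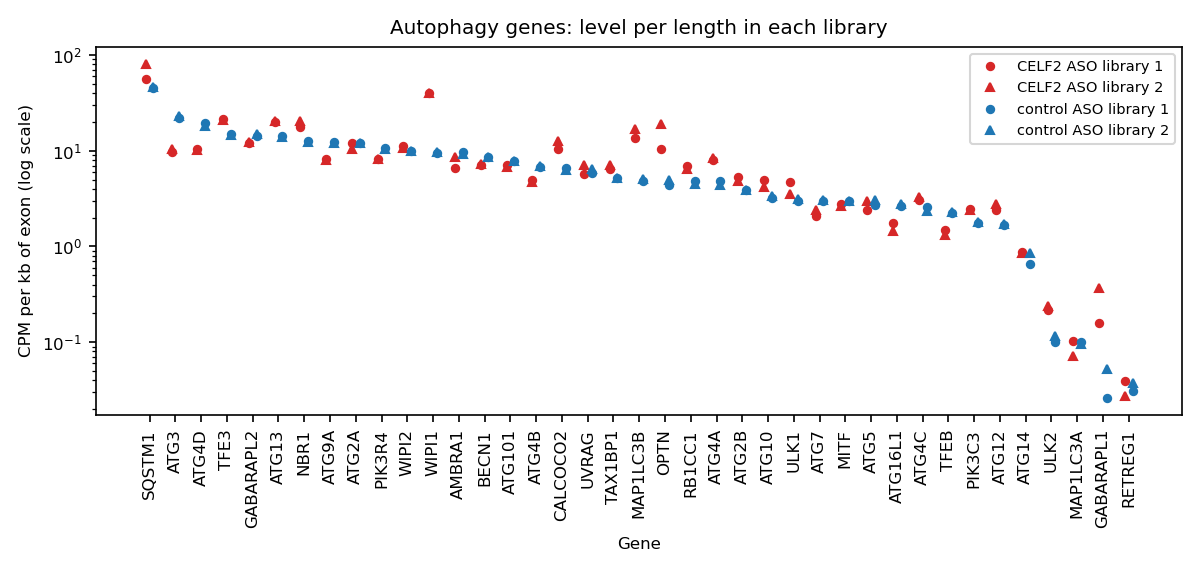
Level of each member in CPM per kb of exon (log scale) in each library, ordered by the mean of the control ASO libraries. CELF2 ASO libraries are red and control ASO libraries blue, and GABARAP is left out because 1 library is at 0. SQSTM1 leads in all 4 libraries, WIPI1 reaches 40.5 and 40.1 CPM per kb with the CELF2 ASO, and ULK2, MAP1LC3A, GABARAPL1 and RETREG1 lie lowest.

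In the order of levels per length in the control ASO libraries, SQSTM1 led, followed by ATG3 at 22.1 and 22.8 CPM per kb and ATG4D at 19.4 and 18.3 CPM per kb. In the CELF2 ASO libraries SQSTM1 was followed by WIPI1 at 40.5 and 40.1 CPM per kb, which had stood at 9.51 and 9.6 CPM per kb with the control ASO. TFE3, ATG13 and NBR1 came next with the CELF2 ASO, TFE3 at 21.7 and 20.9, ATG13 at 20 and 20.5, and NBR1 at 17.8 and 20.5 CPM per kb, of which ATG13 and NBR1 overlapped.

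Several members differed between the 2 CELF2 ASO libraries. The difference exceeded 0.25 on the log2 scale in 9 of 37 tested members in the CELF2 ASO pair and in 2 of 37 in the control ASO pair. The median absolute difference was 0.11 and 0.05 for the members, against 0.21 and 0.12 over all tested genes with counts in every library. GABARAPL1 was 2.32-fold and OPTN 1.8-fold higher in CELF2 ASO library 2 than in library 1, and SQSTM1 was 1.46-fold higher. ULK1 was lower in library 2. A list of 18 interferon response genes, added after the values were seen, also differed between these libraries. It summed to 4410 and 10641 CPM in CELF2 ASO libraries 1 and 2 and to 4170 and 4967 CPM under the control ASO. Of these 18 genes 2 rose past the test and none fell, 11.1% called, where 55.5% of all tested genes were called. Their median log2 fold change was 1.08, beside 0.04 over all tested genes. With no overlap between the groups, 11 of them were higher and none lower. Over all tested genes 41.2% were higher and 38.4% lower in this way. The part of the interferon genes in the difference of OPTN, GABARAPL1 and SQSTM1 was not tested. In CELF2 ASO library 1 alone, OPTN, GABARAPL1 and SQSTM1 were above the control mean by 1.16, 2.02 and 0.29 on the log2 scale. The median of the 18 interferon genes was 0.41 above it in that library and 1.56 in library 2.

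**Figure D4:**
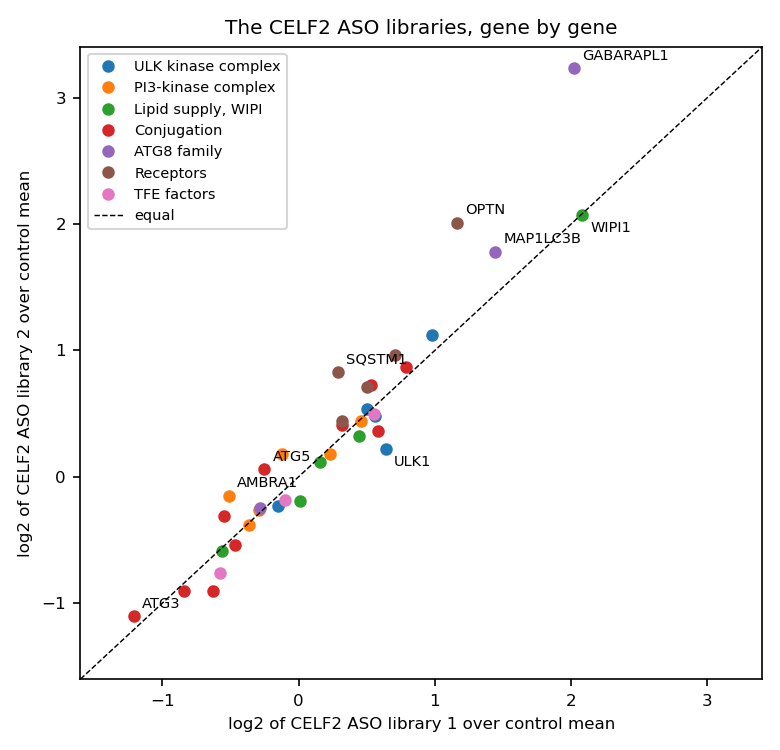
Log2 ratio of each CELF2 ASO library to the mean of the control ASO libraries, with library 1 on the horizontal and library 2 on the vertical axis, for the 37 tested members. Points on the dashed line are equal in both. Most members lie near the line, WIPI1 lies on it at 2.08 and 2.07, and OPTN, SQSTM1 and GABARAPL1 lie above it.

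Other genes of the pathway were counted in 5 lists. Of 76 tested genes in these lists, 32 rose and 15 fell, 61.8% called beside the 55.5% of all tested genes, with a median log2 fold change of 0.19. Among 17 further core autophagy genes 12 rose and none fell, 70.6% called, with a median of 0.68, and 5 did not pass. The 12 include MAP1LC3B2, which had few counts and passed the filter only through the CELF2 ASO libraries, where it was high. WDR45 (WIPI4), a relative of WIPI1 that binds ATG2 proteins, was 3.22-fold higher, and EPG5, a tether for fusion with lysosomes, was 1.73-fold higher. Among 14 fusion genes 2 rose and 5 fell, 50% called. VPS39, a subunit of the HOPS tether, was 1.48-fold higher and the autophagosomal SNARE gene STX17 1.33-fold higher, while the HOPS subunit VPS18 was 1.68-fold and the lysosomal SNARE gene VAMP8 1.54-fold lower.

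Among 19 other receptor genes 7 rose and 5 fell, 63.2% called where the share over all tested genes was 55.5%. CCPG1, a receptor for endoplasmic reticulum, was 6.66-fold higher (edgeR adjusted p = 5.77e-06) and CALCOCO1, a relative of CALCOCO2, was 2.56-fold higher. TEX264, another receptor for endoplasmic reticulum, was 1.46-fold lower and the ferritin receptor NCOA4 1.38-fold lower. Among 16 upstream kinase and regulator genes 5 rose and 4 fell, 56.2% called, which is close to the share over all tested genes. The mTORC1 inhibitor DDIT4 was 5.08-fold higher and the pseudokinase TRIB3 5.92-fold higher, and the mTORC1 subunit genes AKT1S1 and MLST8 were 2.33-fold and 1.93-fold lower. Among 10 partners and targets of TFE factors 6 rose and 1 fell, 70% called. GPNMB, a target of MITF in other cells, was 2.59-fold higher and the Rag GTPase gene RRAGD 1.32-fold higher, while the lysosomal channel gene MCOLN1 was 1.44-fold lower.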

How the data were processed

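RNA-seq data of 4 libraries of RPMI 8226 cells were used, 2 with the CELF2 ASO and 2 with the control ASO. The authors deposited whole-number read counts per gene for each library, with no normalization that the values show. The build GRCh38 and the tools STAR 2.7.11b, featureCounts 2.0.8, Subread, bcl2fastq and Salmon 1.10.0 are named per the submitters' processing notes. For annotation release, strand setting and multi-mapped reads the entry is: not given in the sources used here. The 97 rows that are not Ensembl genes held 1 to 3 counts per library and were left out.

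Symbols came from a name table. Positions, exon overlaps and exon lengths came from GENCODE 29, and promoters from RefSeq on GRCh38.p14. Genes were filtered by filterByExpr (minimum count 10, minimum total 15), scaled by TMM and compared in R 4.3.3 with edgeR 4.0.16 (robust quasi-likelihood test with this version's default fit, two-sided, no covariate, Benjamini-Hochberg over 19511 genes, threshold 0.05). Standard errors are the absolute log2 fold change over the square root of F. Alternatives used DESeq2 1.42.0 and limma 3.58.1. Replicate libraries differed beyond sampling noise (chi-square per gene 18.5 and 3.38 in the CELF2 and control ASO pairs). The members and lists were chosen with earlier results of these data known, and the interferon list was added after values were seen. All 40 members are named, and of each other list up to 2 genes per direction with the smallest adjusted p. Genes named outside this rule are markers, overlapping genes, copies, and the pathway genes of the closing observations, which were chosen after their values were seen.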

Additional observations from a re-analysis of the deposited data

How the results depend on the processing

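Of the 28 members called, 17 kept their call and direction in each of the 15 alternatives that tested them. GABARAPL1 is among these 17 but was not tested with the 1 CPM filter. None of the 28 changed direction. Of the alternatives, 4 were chosen after seeing the data. They were library sizes recomputed after the filter, a dispersion without a trend, a dispersion not robust and the non-legacy quasi-likelihood fit. Leaving out 1 library leaves 1 group with 1 library, so the spread then comes from the other group's pair alone. The number of members called was 27 to 29 under other scalings, filters and tests, and 20 to 33 when 1 library was left out, with the lowest count without control_LNA_ASO replicate 1, where the spread comes from the CELF2 ASO pair alone. Over all genes 10824 were called, and 8602 to 12189 when 1 library was left out. Those 4 settings called 10823 to 10849 genes. Among the other autophagy genes 47 were called, and 37 to 57 when 1 library was left out. The median log2 fold change of the members was 0.36, and it was 0.48 with library totals alone, where the median of all genes was 0.16 against 0.04. It was 0.12 with no filter, which adds 3 members of few counts, and 0.23 to 0.35 when 1 library was left out. Of members that missed the threshold, these changed sign. ATG14 was at -0.01 to 0.39 when 1 library was left out. UVRAG was at -0.02 with no filter and at -0.13 to 0.19 when 1 library was left out. ATG2A was at 0.03 with library totals alone. ATG5 was at 0.03 with library totals alone and at -0.26 to 0.07 when 1 library was left out, and the cause was not tested. With the label's number as a replicate block, 29 members, 48 other autophagy genes and 10807 genes were called. The numbers give only 2 pairs and no label says what they share, and deviations of same-numbered libraries had a correlation of 0.0343 across genes. AMBRA1 was the member gained under the block. Depth limits GABARAPL1 and ULK2, whose fold changes rest on few counts.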

Other observations

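Further pathway genes were looked at after their values were seen. C9orf72 and WDR41, which form a complex with SMCR8 that acts on ULK1 and lysosomes, were 3-fold and 1.79-fold higher with the CELF2 ASO (edgeR adjusted p = 0.000226 and 9.65e-05). SMCR8 had a log2 fold change of -0.10 ± 0.09 (SE; edgeR adjusted p = 0.404). Of the receptors for endoplasmic reticulum in the lists, RTN3 was 1.63-fold and ATL3 1.37-fold higher beside CCPG1, TEX264 was 1.46-fold lower, and SEC62 did not pass at -0.06 on the log2 scale (edgeR adjusted p = 0.493). Of the mitochondrial receptors in the lists, BNIP3L was 2.16-fold higher, while BNIP3 was 1.55-fold and PHB2 1.3-fold lower. FUNDC1, FKBP8 and BCL2L13 did not pass, at 0.19, -0.19 and 0.36 on the log2 scale. Of the AMPK subunit genes, PRKAB2 was 2.46-fold, PRKAG2 1.5-fold and PRKAB1 1.29-fold higher. PRKAG1 did not pass at 0.60 on the log2 scale (edgeR adjusted p = 0.108), nor did PRKAA1 at -0.07 (edgeR adjusted p = 0.605). PRKAA2 had no counts in any library.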
